A study of Mus musculus with 18 samples.

Results

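A set of 10 genes of the Notch pathway was followed across 18 RNA libraries of C2C12, mouse myoblasts in culture that form multinucleate myotubes once serum is lowered. The 10 genes were taken by symbol from the count table: the receptors Notch1, Notch2, Notch3 and Notch4, the ligands Dll1, Jag1 and Jag2, and the target genes Hey1, Heyl and Hes1. All 10 were found among the 55450 genes of the table, and all 10 were among the 17912 genes with enough counts to be tested. The study asked what the dosage of noncoding RNA from the Dlk1-Dio3 region, an imprinted cluster that includes Meg3, does to muscle cell state and to differentiation. It compared 3 lines, each at the growing myoblast stage and at the myotube stage (day 3 of differentiation), with 3 libraries (A, B and C) in each of the 6 groups. The control was a sorted population that had received the pX458 vector alone. The overexpressor and the line labelled knockout were each 1 clone grown from a single cell after CRISPR-Cas9 deletion with guide pairs in the proximal promoter region of Meg3. All 3 lines had passed through PEI transfection and sorting for EGFP. Myoblasts were kept in DMEM with fetal bovine serum, and myotubes were made from confluent cells in DMEM with horse serum. Genotype and clone cannot be told apart with 1 clone of each kind, nor can clone and population. Nothing in the labels says whether libraries A, B and C came from separate cultures, so the p-values measure only the spread between these libraries, which may be technical.

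Notch receptors are membrane proteins that are activated by ligands on a neighbouring cell. After ligand binding, an ADAM protease and then gamma-secretase cut the receptor, and its intracellular domain goes to the nucleus, where it joins the DNA-binding protein RBPJ and coactivators of the Mastermind family to switch on genes of the Hes and Hey families. In muscle, Notch activity is known for holding satellite cells and myoblasts in an undifferentiated state, and Hes and Hey proteins are repressors of transcription. Receptor, ligand and target transcripts do not report receptor cleavage, which was not measured here.

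Library totals ran from 41544358 to 79140702 counts. An approximate upper limit of 3 counts, used here for a count of 0, corresponded to between 0.0375 and 0.0693 CPM (counts scaled to a common library size with a TMM factor). This limit covers counting error only. Meg3, the targeted gene, had 0 counts in every control library and in every library labelled knockout, against 133 ± 22.9 CPM in overexpressor myoblasts and 92.6 ± 13.4 CPM in overexpressor myotubes (SD, n = 3). Meg3 therefore does not check the knockout label. Summed levels of 6 myotube markers were 243 to 372 CPM in control myoblasts, 423 to 699 in overexpressor myoblasts and 9130 to 11700 in myoblasts labelled knockout. They were 13600 to 14100 CPM in control, 20800 to 22900 in overexpressor and 29500 to 35100 in labelled knockout myotubes. Summed levels of 5 fibroblast and fibro-adipogenic markers (Pdgfra, Dpt, Ly6a, Cd34 and Pi16) were 410 to 434 CPM in control myotubes, 43.9 to 48.6 in overexpressor myotubes and 24.5 to 26.7 in labelled knockout myotubes. Over all libraries the summed level was 1120 to 9870 CPM for 4 myoblast markers, 0.764 to 2.22 for 4 macrophage markers, 0.634 to 1.82 for 4 Schwann and glial markers and 3.47 to 19.5 for 4 adipocyte markers, and 6 endothelial markers stayed at or under 0.669 CPM. Des made up most of the myoblast sum. Between control myoblasts and myotubes 1 of these 4 rose (Des, means of 913 and 2105 CPM) and 2 fell (Pax7, 42.1 and 5.64, and Myf5, 25.5 and 6.20). In such bulk samples, fewer cells of a type and less RNA per cell cannot be told apart.

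Promoter sequences were examined for the members with an entry in the RefSeq promoter table (build GRCm38.p6), which were 7 of the 10, in 8 windows of 250 bases before a start site. Hes1, Hey1 and Heyl had no entry. Stretches of 3 promoters are shown: that of Dll1, the ligand that differed from control in opposite directions in the 2 clones at both stages, that of Jag1, the member with the widest range of levels, and that of Notch3, which held the largest share of receptor transcripts in 4 of the 6 groups. Each is written 5′ to 3′ on the strand of its gene, all on the minus strand, and ends before the first annotated exon. Capitals mark CAGCTG, an E box of the kind that MyoD-family factors bind, in Dll1, and CACNAG, the N box of Hes proteins, in Notch3, where the second match reads CTTGTG because it lies on the other strand.
Dll1 (chr17:15376933-15377182): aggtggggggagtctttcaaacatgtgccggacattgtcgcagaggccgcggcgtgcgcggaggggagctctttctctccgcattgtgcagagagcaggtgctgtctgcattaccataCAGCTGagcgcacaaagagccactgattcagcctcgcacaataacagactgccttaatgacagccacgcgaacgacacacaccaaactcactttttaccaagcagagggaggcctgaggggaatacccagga
Jag1 (chr2:137116645-137116770): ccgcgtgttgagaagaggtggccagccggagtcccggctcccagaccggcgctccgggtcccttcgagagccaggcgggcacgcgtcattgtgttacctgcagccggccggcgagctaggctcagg
Notch3 (chr17:32166891-32167140): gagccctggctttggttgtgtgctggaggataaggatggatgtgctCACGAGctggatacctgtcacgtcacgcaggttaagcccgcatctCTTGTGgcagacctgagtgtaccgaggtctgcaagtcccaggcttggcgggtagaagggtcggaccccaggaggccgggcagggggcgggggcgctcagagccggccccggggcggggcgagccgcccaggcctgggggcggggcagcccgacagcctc
Both strands were searched for 3 motifs. TGGGAA, the core that RBPJ binds, was in 0 of the 7 members and in 21.6% of all 32851 windows of this length. CACNAG was in 3 members, once in Notch1, once in Notch2 and at 204 and 159 bases before the start in Notch3, and in 36.7% of all windows. The RefSeq start used for Notch1 lies 12841 bases from its GENCODE start, inside the annotated gene. CAGCTG, added to the search after the sequences were seen, was in 2 members, at 132 bases before the start in Dll1 and at 82 bases before the RefSeq start in Jag1, and in 13% of all windows. The Jag1 match lies past the GENCODE start and so outside the stretch shown. No match overlapped another, and a match describes letters only.

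**Figure D1:**
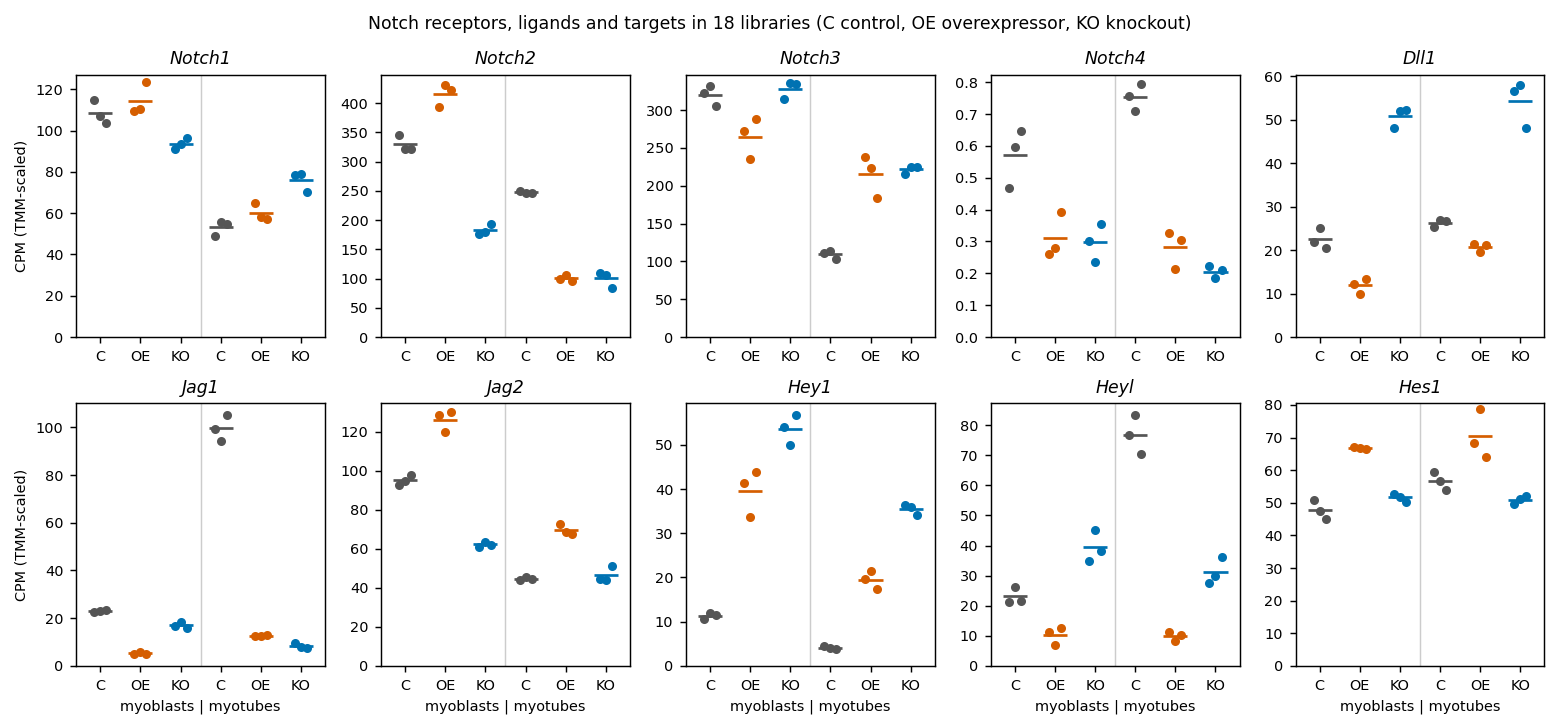
Level of each of the 10 genes in every library, in CPM on a linear axis that starts at 0 and differs between panels. Points are libraries, lines are the means of 3, and the grey line separates myoblasts from day 3 myotubes of the control (C), the overexpressor (OE) and the line labelled knockout (KO). Jag1 reaches 94.3 to 105 CPM in control myotubes and stays at or under 13.1 CPM in the myotubes of both clones.

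In myoblasts, both clones differed from the control at most of these genes, with Hey1 higher and Jag1 lower in each. Hey1 was 3.49-fold higher in the overexpressor and 4.72-fold higher in the labelled knockout, and Jag1 was 4.39-fold and 1.35-fold lower. Between the overexpressor and the control, 9 of 10 members passed: Notch2, Jag2, Hey1 and Hes1 were higher in the overexpressor, and Notch3, Notch4, Dll1, Jag1 and Heyl were lower. Of all genes tested, 40.4% passed in that comparison, 20.7% as higher and 19.7% as lower. Between the labelled knockout and the control, 8 of 10 passed: Dll1, Hey1 and Heyl were higher in the labelled knockout, and Notch1, Notch2, Notch4, Jag1 and Jag2 were lower, where 53.0% of all genes passed, 26.4% as higher and 26.6% as lower. The median log2 fold change of the members was -0.10 in the overexpressor and -0.09 in the labelled knockout, beside 0.015 and 0.019 over all genes. The comparisons share the control libraries. The clones were also tested against each other, and 9 of 10 members passed: Notch1, Notch2, Jag2 and Hes1 were higher and Notch3, Dll1, Jag1, Hey1 and Heyl lower in the overexpressor, beside 52.6% of all genes, 25.7% as higher and 26.9% as lower. All 6 myotube markers were higher in the labelled knockout than in control myoblasts. In overexpressor myoblasts 5 of the 6 passed as higher than control and 0 as lower. Summed fibroblast and fibro-adipogenic markers were 350 to 371 CPM in control, 463 to 589 in overexpressor and 52.8 to 56.6 in labelled knockout myoblasts. In overexpressor myoblasts 1 of the 5, Ly6a, was higher than control (mean of 502 against 166 CPM) and the other 4 were lower. In labelled knockout myoblasts 2 of the 5 were higher than control and 2 were lower. There Ly6a had a mean of 8.98 against 166 CPM and Cd34 of 5.71 against 164, while Pdgfra had 36.9 against 30.0. Summed pericyte and smooth muscle markers were 672 to 694 CPM in control, 119 to 133 in overexpressor and 505 to 549 in labelled knockout myoblasts. Pdgfrb (means of 586, 54.3 and 507 CPM) and Cspg4 (96.0, 70.8 and 21.9) made up nearly all of these sums. The other 4 of the 6 listed markers had means under 0.1 CPM in control myoblasts. Of the 4 tested, 2 were lower than control in each clone, with 0 higher in the overexpressor and 1 higher in the labelled knockout. Abcc9 had a mean of 1.37 CPM in labelled knockout and 0.0138 in control myoblasts. The part of these markers' cell types in the differences was not tested.

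In day 3 myotubes, the clones shared low Jag1, Heyl, Notch2 and Notch4 and high Hey1 and Notch3. Jag1 was 7.83-fold lower than in control in the overexpressor and 12-fold lower in the labelled knockout, and Hey1 was 4.72-fold and 8.61-fold higher. In the overexpressor, 9 of 10 members passed: Notch3, Jag2, Hey1 and Hes1 were higher, and Notch2, Notch4, Dll1, Jag1 and Heyl were lower. Of all genes, 57.1% passed there, 26.2% as higher and 30.9% as lower. In the labelled knockout, 8 of 10 passed: Notch1, Notch3, Dll1 and Hey1 were higher, and Notch2, Notch4, Jag1 and Heyl were lower, beside 68.0% of all genes, 31.0% as higher and 37.0% as lower. The median of the members was -0.09 and -0.05 on the log2 scale, beside -0.04 and -0.07 over all genes. Between the clones, 7 of 10 passed, with Jag1, Jag2 and Hes1 higher and Notch1, Dll1, Hey1 and Heyl lower in the overexpressor, beside 59.7% of all genes, 30.6% as higher and 29.1% as lower. All 5 fibroblast and fibro-adipogenic markers were lower in the myotubes of both clones than in control, and of the 4 tested pericyte and smooth muscle markers 2 (Pdgfrb and Cspg4) were lower and 1 (Abcc9, at means of 0.891 CPM in control, 4.47 in overexpressor and 12.1 in labelled knockout myotubes) was higher in both, with sums of 1040 to 1140 CPM in control, 135 to 160 in overexpressor and 195 to 204 in labelled knockout myotubes. The other 3 markers of that list, Rgs5, Kcnj8 and Myh11, stayed at or under 0.275 CPM in every library. Pdgfrb made up most of each myotube sum. Of the 6 myotube markers, 4 passed as higher and 0 as lower than control in overexpressor myotubes. All 6 were higher in labelled knockout myotubes. The part of these cell types and of the state of differentiation in the differences was not tested.

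**Figure D2:**
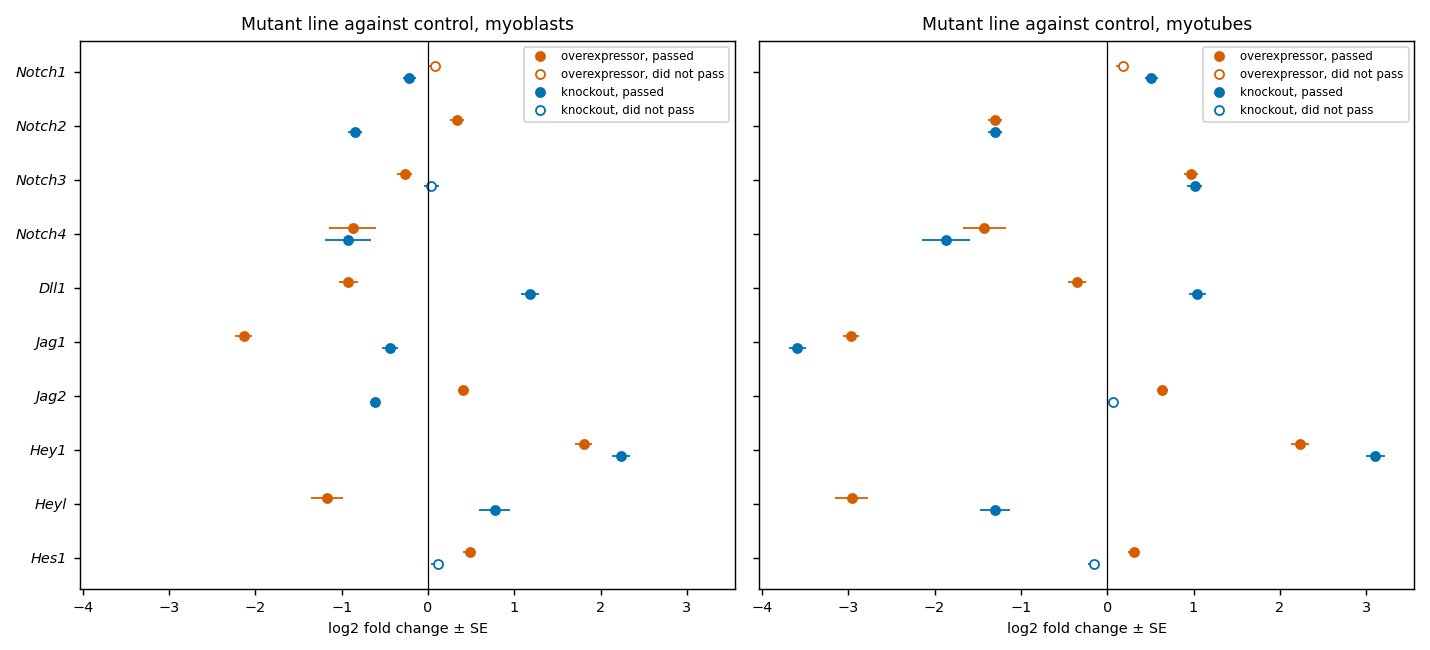
Log2 fold change of each clone against the control, with its standard error, in myoblasts (left) and day 3 myotubes (right). Filled circles passed an adjusted p of 0.05 in edgeR's quasi-likelihood test and open circles did not. Hey1 lies right of 0 and Jag1 left of 0 in all 4 comparisons, and Dll1 lies on opposite sides in the 2 clones.

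Among the receptors, Notch2 and Notch3 carried most of the transcripts. Notch2 measured 346, 322 and 321 CPM in control myoblasts, 393, 432 and 422 in overexpressor myoblasts and 176, 180 and 193 in labelled knockout myoblasts (libraries A, B and C). The 3 groups did not overlap, with the overexpressor on top and the labelled knockout lowest. For 51.1% to 72.3% of all genes tested, depending on the comparison, the libraries of the 2 groups compared did not overlap either. Notch2 differed from control by 0.34 ± 0.08 (log2 fold change ± SE, adjusted p = 0.00209) in the overexpressor and by -0.85 ± 0.08 (adjusted p = 5.18e-08) in the labelled knockout. In myotubes Notch2 measured 250, 246 and 247 CPM in control, 99.3, 106 and 96.3 in the overexpressor and 110, 106 and 84.6 in the labelled knockout. Both clones lay under every control library and overlapped with each other. The log2 fold change against control was -1.30 ± 0.08 (adjusted p = 1.35e-10) and -1.31 ± 0.08 (adjusted p = 1.13e-10), and between the clones it was 0.004 ± 0.08 (adjusted p = 0.968).

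Notch3 had the opposite order in myotubes. It measured 112, 114 and 104 CPM in control myotubes, 238, 223 and 184 in overexpressor myotubes and 216, 225 and 224 in labelled knockout myotubes. Every library of the clones was above every control library. The log2 fold change was 0.97 ± 0.09 (adjusted p = 1.85e-08) in the overexpressor and 1.01 ± 0.09 (adjusted p = 8.71e-09) in the labelled knockout. In myoblasts the lines lay closer, at 322, 332 and 306 CPM in control, 272, 235 and 288 in the overexpressor and 315, 336 and 335 in the labelled knockout. The overexpressor was lower than control by a log2 fold change of -0.27 ± 0.08 (adjusted p = 0.0156), a call that was lost without control replicate B (adjusted p = 0.06) or overexpressor replicate B (adjusted p = 0.089). The labelled knockout overlapped with the control (0.04 ± 0.08, adjusted p = 0.736).

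Notch1 spanned 48.9 to 123 CPM over all libraries. In myotubes it measured 48.9, 55.9 and 54.9 CPM in control, 65.1, 58.2 and 57.3 in the overexpressor and 78.4, 79 and 70.3 in the labelled knockout. The labelled knockout lay above both other lines, at 0.51 ± 0.07 against control (adjusted p = 8.23e-06). The overexpressor did not pass (0.18 ± 0.07, adjusted p = 0.0501), and passed with size factors of the median-of-ratios kind (0.29, adjusted p = 0.004), with library totals (0.32, adjusted p = 0.00238), with DESeq2 (0.29, adjusted p = 0.0021), with at least 1 CPM in 3 libraries (adjusted p = 0.0394), in a fit of the groups compared alone (0.27, adjusted p = 0.039), without control replicate B (adjusted p = 0.0421) and without overexpressor replicate C (0.31, adjusted p = 0.00235). In myoblasts the overexpressor overlapped with control (0.08 ± 0.07, adjusted p = 0.453). The labelled knockout was lower by -0.22 ± 0.07 (adjusted p = 0.0204), a call lost without control replicate A (adjusted p = 0.0954), knockout replicate A (adjusted p = 0.0735) or knockout replicate B (adjusted p = 0.0513).

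Notch4, best known as a receptor of endothelial cells, was near the limit of detection with 10 to 44 counts per library. Control libraries lay at 0.468 to 0.646 CPM in myoblasts and 0.710 to 0.794 CPM in myotubes, above all libraries of both clones, which lay between 0.184 and 0.393 CPM. The log2 fold change against control was -0.87 ± 0.27 (adjusted p = 0.0156) and -0.93 ± 0.27 (adjusted p = 0.00753) in overexpressor and labelled knockout myoblasts. It was -1.42 ± 0.25 (adjusted p = 0.000101) and -1.87 ± 0.28 (adjusted p = 9.59e-06) in the myotubes. With no filter on low counts the 2 myoblast calls were lost (adjusted p = 0.0814 and 0.0501), and the call in the overexpressor was lost also without control replicate C (0.0582), overexpressor replicate A (0.0688) or overexpressor replicate B (0.0542).

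Per exon length, Notch2 led the receptors in control myotubes and Notch3 led them in the myotubes of both clones, while the sum of the 4 was similar in the myotubes of the 3 lines. The summed level of the 4 receptors was 77.8 ± 2.61 RPKM in control, 79.4 ± 3.60 in overexpressor and 64.2 ± 2.27 in labelled knockout myoblasts, and 40.4 ± 0.64, 40.2 ± 3.95 and 42.1 ± 1.37 RPKM in the myotubes (SD, n = 3). In control myotubes Notch2 held 56.9% ± 1.02 of this sum and Notch3 33.6% ± 1.13. In the myotubes of the clones Notch3 held 66.0% ± 2.23 in the overexpressor and 65.2% ± 2.84 in the labelled knockout, and Notch2 held 23.3% ± 1.88 and 22% ± 2.41. In myoblasts Notch3 held 50.8% of the sum in control cells, 41.2% in overexpressor cells and 63.3% in the line labelled knockout. These shares are levels within a library and were not tested. Other annotated genes overlap exons of Notch1 (0610009E02Rik, 1068 bases, opposite strand), Notch2 (Gm42820, 541 bases, same strand) and Notch3 (Gm17276, 488 bases, opposite strand). The counts cannot tell reads of the opposite-strand genes apart if strand was not used. Strand does not separate Gm42820 from Notch2 in any case.

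**Figure D3:**
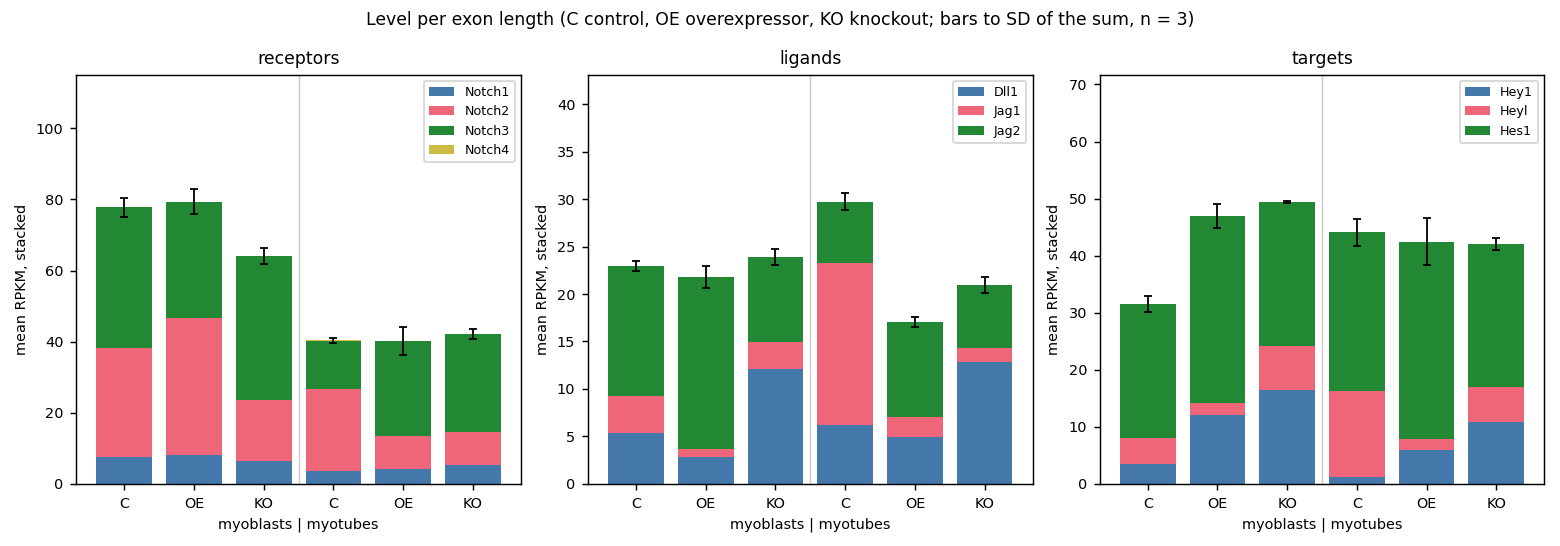
Mean level per exon length (RPKM, stacked by gene) of receptors, ligands and targets in the 6 groups of 3 libraries, with C, OE and KO for control, overexpressor and labelled knockout. Error bars are the SD of the sum over the genes of a panel. Control myotubes are the group in which Notch2 exceeds Notch3 most, and the group in which Jag1 makes up 57.4% of the ligand level.

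Jag1 and Jag2, the Jagged ligands, and Dll1, a Delta ligand, each had a pattern of its own. Jag1 measured 22.7, 22.8 and 23.6 CPM in control myoblasts, 5.09, 5.85 and 4.78 in overexpressor myoblasts and 16.7, 18.3 and 15.9 in labelled knockout myoblasts. The groups did not overlap, and the difference from control was -2.14 ± 0.10 (adjusted p = 4.18e-12) in the overexpressor and -0.44 ± 0.09 (adjusted p = 0.000458) in the labelled knockout. In myotubes Jag1 measured 99.4, 94.3 and 105 CPM in control, 12.4, 12.7 and 13.1 in the overexpressor and 9.43, 8 and 7.34 in the labelled knockout. The lowest control library exceeded the highest library of either clone several times over. The difference was -2.97 ± 0.09 (adjusted p = 2.1e-14) in the overexpressor and -3.59 ± 0.10 (adjusted p = 2.52e-15) in the labelled knockout, and the overexpressor lay above the labelled knockout by 0.62 ± 0.09 (adjusted p = 1.83e-05). The ratio of the highest to the lowest group mean was 19.0 for Jag1, the largest of the 10 members.

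Dll1, the Delta ligand of myogenic cells, went opposite ways in the clones. In myoblasts it measured 22, 25 and 20.4 CPM in control, 12.3, 9.86 and 13.4 in the overexpressor and 48.0, 52.1 and 52.3 in the labelled knockout. The overexpressor was below and the labelled knockout above every control library, by -0.92 ± 0.11 (adjusted p = 1.14e-06) and 1.18 ± 0.10 (adjusted p = 2.27e-08). In myotubes it measured 25.2, 27.0 and 26.7 CPM in control, 21.3, 19.5 and 21.2 in the overexpressor and 56.6, 58.0 and 48.2 in the labelled knockout. The labelled knockout was again above control (1.05 ± 0.10, adjusted p = 6.62e-08). The overexpressor was lower by -0.35 ± 0.10 (adjusted p = 0.00748), a call lost with median-of-ratios size factors (-0.24, adjusted p = 0.0569), with library totals (-0.20, adjusted p = 0.116), with DESeq2 (-0.24, adjusted p = 0.0546) and without overexpressor replicate C (-0.26, adjusted p = 0.0576). A long noncoding RNA gene on the opposite strand, A930024N18Rik, overlaps 867 bases of Dll1 exons, and whether strand was used in counting is not given in the sources used here.

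Jag2 had the reverse order of Dll1 between the clones. It measured 92.9, 94.8 and 97.7 CPM in control myoblasts, 129, 120 and 130 in overexpressor myoblasts and 61.0, 63.7 and 62.0 in labelled knockout myoblasts. No groups overlapped, with 0.41 ± 0.06 (adjusted p = 3.04e-05) in the overexpressor and -0.61 ± 0.06 (adjusted p = 1.51e-07) in the labelled knockout. In myotubes it measured 44.2, 45.3 and 44.6 CPM in control, 72.9, 68.5 and 67.5 in the overexpressor and 44.7, 44.1 and 51.2 in the labelled knockout. The overexpressor stood apart (0.64 ± 0.06, adjusted p = 7.12e-08), and the labelled knockout overlapped with the control (0.06 ± 0.06, adjusted p = 0.397), although it passed with median-of-ratios size factors (0.19, adjusted p = 0.026).

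The 3 ligands together had similar levels per length in the myoblasts of the 3 lines, at 22.9 ± 0.51 RPKM in control cells, 21.8 ± 1.15 in overexpressor cells and 23.9 ± 0.82 in labelled knockout cells (SD, n = 3), made up differently. Jag2 held 83.0% ± 0.69 of the sum in overexpressor myoblasts and Dll1 50.4% ± 1.09 in labelled knockout myoblasts, while control myoblasts had 59.6% ± 1.60 Jag2. In myotubes the sum was 29.7 ± 0.88 RPKM in control cells, 17.1 ± 0.52 in overexpressor cells and 21.0 ± 0.82 in labelled knockout cells. The leading ligand there was Jag1 in control (57.4% ± 1.58), Jag2 in the overexpressor (58.5% ± 1.20) and Dll1 in the labelled knockout (61.2% ± 3.73).

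The target genes did not move as a group. Hey1, a repressor of the Hes and Hey family, measured 10.6, 12 and 11.5 CPM in control myoblasts, 41.5, 33.6 and 43.8 in overexpressor myoblasts and 54.0, 50.0 and 56.8 in labelled knockout myoblasts. In myotubes it measured 4.40, 4.07 and 3.91 CPM in control, 19.6, 21.4 and 17.4 in the overexpressor and 36.4, 36.0 and 34.2 in the labelled knockout. The control was lowest and the labelled knockout highest at both stages, with no overlap between lines. Against control the log2 fold change was 1.80 ± 0.10 (adjusted p = 6.92e-11) and 2.24 ± 0.10 (adjusted p = 2.88e-12) in myoblasts of the overexpressor and the labelled knockout. It was 2.24 ± 0.11 (adjusted p = 3.62e-12) and 3.11 ± 0.11 (adjusted p = 5.62e-14) in their myotubes.

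Heyl, a repressor of the same family as Hey1, had another pattern. It measured 21.2, 26.3 and 21.7 CPM in control myoblasts, 11.3, 7.01 and 12.6 in overexpressor myoblasts and 34.9, 45.3 and 38.2 in labelled knockout myoblasts. The overexpressor was lower (-1.17 ± 0.19, adjusted p = 8.32e-05) and the labelled knockout higher (0.77 ± 0.18, adjusted p = 0.00169) than control. In myotubes it measured 76.7, 83.4 and 70.3 CPM in control, 11.3, 8.13 and 10.3 in the overexpressor and 27.6, 29.8 and 36.2 in the labelled knockout. Both clones lay below every control library, by -2.96 ± 0.19 (adjusted p = 1.29e-09) and -1.30 ± 0.18 (adjusted p = 8.75e-06).

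Hes1, a target in many tissues, varied least, with a ratio of 1.47 between the highest and the lowest group mean. It measured 50.9, 47.6 and 45.0 CPM in control myoblasts and 67.0, 66.8 and 66.5 in overexpressor myoblasts, and 59.4, 56.7 and 53.9 CPM in control myotubes against 68.3, 78.8 and 63.9 in overexpressor myotubes. The overexpressor was above control at both stages, by 0.48 ± 0.07 (adjusted p = 2.47e-05) and 0.31 ± 0.07 (adjusted p = 0.00105). The labelled knockout lay at 50.3 to 52.8 CPM in myoblasts and 49.7 to 52.0 CPM in myotubes and did not pass at either stage (0.11 ± 0.07, adjusted p = 0.208, and -0.15 ± 0.07, adjusted p = 0.065), the second of which passed without control myotube C (adjusted p = 0.0464). Per exon length, Hes1 held 51.2% to 81.3% of the summed level of the 3 targets in the 6 groups, the lowest in labelled knockout myoblasts and the highest in overexpressor myotubes.

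Differentiation of the control lowered 3 receptors and raised Jag1 and Heyl. Of the 10 members, 8 passed between control myotubes and myoblasts: Jag1, Heyl and Hes1 rose, and Notch1, Notch2, Notch3, Jag2 and Hey1 fell, beside 62.8% of all genes, 33.9% as higher and 28.8% as lower. Jag1 rose by 2.11 ± 0.09 on the log2 scale (adjusted p = 5.91e-13) and Heyl by 1.73 ± 0.18 (adjusted p = 3.87e-07). Notch3 fell by 1.54 ± 0.09 (adjusted p = 2.41e-11), Hey1 by 1.46 ± 0.11 (adjusted p = 8.73e-10), Jag2 by 1.09 ± 0.06 (adjusted p = 3.42e-11), Notch1 by 1.03 ± 0.07 (adjusted p = 9.03e-10) and Notch2 by 0.41 ± 0.08 (adjusted p = 0.000176). Hes1 rose by 0.24 ± 0.07 (adjusted p = 0.0063), a call lost with library totals (0.00, adjusted p = 0.999). Dll1 (0.23 ± 0.10, adjusted p = 0.0635) and Notch4 (0.41 ± 0.25, adjusted p = 0.157) did not pass, although Dll1 did without control myoblast B (0.31, adjusted p = 0.0248). The median of the members was -0.09, beside 0.07 over all genes.

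In the overexpressor, 7 of 10 members passed between myotubes and myoblasts, with Dll1 and Jag1 higher and Notch1, Notch2, Notch3, Jag2 and Hey1 lower, beside 62.8% of all genes, 29.8% as higher and 33.0% as lower. Notch2 fell by 2.05 ± 0.08 (adjusted p = 2.2e-13), and its lowest myoblast library (393 CPM) was well above its highest myotube library (106 CPM). Dll1 rose by 0.80 ± 0.11 (adjusted p = 2.37e-06) and Jag1 by 1.28 ± 0.10 (adjusted p = 1.26e-09). Heyl did not pass (-0.06 ± 0.19, adjusted p = 0.814), nor did Notch4 (-0.14 ± 0.28, adjusted p = 0.684) or Hes1 (0.07 ± 0.07, adjusted p = 0.38), which passed without myotube replicate C (0.18, adjusted p = 0.0355). The call on Notch3 (-0.30 ± 0.08, adjusted p = 0.00473) was lost with median-of-ratios size factors (-0.21, adjusted p = 0.0592), with DESeq2 (adjusted p = 0.0699), in a fit of these 2 groups alone (adjusted p = 0.0596) and without myotube replicate C (-0.16, adjusted p = 0.0915), and its 2 groups overlapped.

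In the line labelled knockout, 6 of 10 members passed and all 6 were lower in myotubes: Notch1, Notch2, Notch3, Jag1, Jag2 and Hey1, with 0 higher, beside 65.4% of all genes, 29.8% as higher and 35.6% as lower. By edgeR at an unadjusted p under 0.05, and by DESeq2, the count of higher members was also 0. Jag1 fell by 1.04 ± 0.09 (adjusted p = 2.36e-08), Notch2 by 0.87 ± 0.08 (adjusted p = 3.46e-08), Hey1 by 0.59 ± 0.10 (adjusted p = 3.42e-05), Notch3 by 0.57 ± 0.09 (adjusted p = 1.46e-05) and Jag2 by 0.42 ± 0.06 (adjusted p = 1.49e-05). The call on Notch1 (-0.30 ± 0.07, adjusted p = 0.0017) was lost with median-of-ratios size factors (-0.18, adjusted p = 0.0565) and with DESeq2 (adjusted p = 0.0621). Heyl (-0.34 ± 0.18, adjusted p = 0.104), Hes1 (-0.02 ± 0.07, adjusted p = 0.819), Dll1 (0.10 ± 0.10, adjusted p = 0.424) and Notch4 (-0.54 ± 0.30, adjusted p = 0.127) did not pass. With library totals, Heyl (-0.51, adjusted p = 0.0139), Hes1 (-0.19, adjusted p = 0.0303) and Notch4 (-0.70, adjusted p = 0.0463) did.

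**Figure D4:**
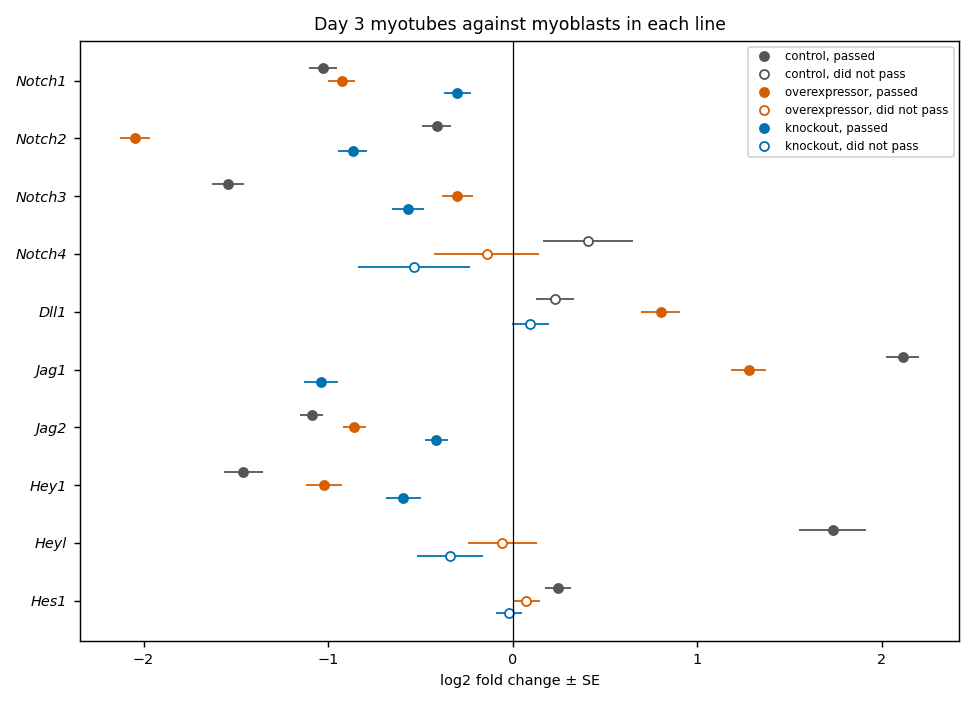
Log2 fold change of day 3 myotubes against myoblasts of the same line, with its standard error, for the control, the overexpressor and the line labelled knockout. Filled circles passed an adjusted p of 0.05 and open circles did not. Jag1 lies at 2.11 in the control, 1.28 in the overexpressor and -1.04 in the labelled knockout, and Heyl at 1.73, -0.06 and -0.34.

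Whether the response to differentiation differed from that of the control was tested as an interaction in the same fit. In the overexpressor 7 of 10 members differed, with Notch3, Dll1, Jag2 and Hey1 more positive and Notch2, Jag1 and Heyl more negative than in control, beside 39.0% of all genes, 16.6% as higher and 22.3% as lower. In the labelled knockout 8 of 10 differed, with Notch1, Notch3, Jag2 and Hey1 more positive and Notch2, Jag1, Heyl and Hes1 more negative, beside 50.1% of all genes, 20.2% as higher and 29.9% as lower. The difference was largest for Jag1 in the labelled knockout (-3.15 ± 0.13, adjusted p = 2.44e-12), where the response had the opposite sign to that of the control. Heyl followed with -2.08 ± 0.25 (adjusted p = 5.48e-06) in the labelled knockout and -1.79 ± 0.26 (adjusted p = 3.59e-05) in the overexpressor. Notch2 differed by -1.64 ± 0.11 (adjusted p = 2.05e-09) and Notch3 by 1.24 ± 0.12 (adjusted p = 1.77e-07) in the overexpressor. The calls on Jag2 (0.23 ± 0.09, adjusted p = 0.0447) and Hey1 (0.44 ± 0.14, adjusted p = 0.0208) in the overexpressor and on Hes1 (-0.27 ± 0.10, adjusted p = 0.0377) in the labelled knockout were each lost when single libraries were left out. Jag2 lost its call without any of the control libraries, without overexpressor myoblast A or B and without overexpressor myotube A or B (0.20 to 0.25). Hey1 lost it without control myoblast B, control myotube C or overexpressor myotube B (0.37 to 0.40), and Hes1 without control myoblast B or C, control myotube A or B, or libraries A or B of either stage of the labelled knockout (-0.27 to -0.22). The Hes1 response of the overexpressor did not pass (-0.17 ± 0.10, adjusted p = 0.205) and passed without overexpressor myotube B (adjusted p = 0.0372), and the Notch4 response of the labelled knockout (-0.95 ± 0.39, adjusted p = 0.052) passed without knockout myoblast B (adjusted p = 0.0396). Myotube markers were already 9130 to 11700 CPM in summed level in labelled knockout myoblasts, and all 6 had a smaller response in that line than in control. The part of this starting level in the interactions was not tested.

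Across the 18 libraries, which form 6 groups of 3 and share their scaling, Jag1 and Hey1 had a Pearson r of -0.852 on the log2 CPM scale, Notch1 and Notch3 0.828, and Jag1 and Heyl 0.744. The other pairs of members at least as strong as the last were Notch4 and Hey1 (-0.829), Notch4 and Jag1 (0.806), Notch1 and Jag2 (0.756) and Dll1 and Jag2 (-0.748). Among 11741 other genes of at least 1 CPM, the gene most like Jag1 over these libraries was Srfbp1 (r = 0.972), the gene most like Hey1 was Rragd (r = 0.968) and the gene most like Notch3 was Csrp1 (r = 0.984). Notch2 was most like S100a10 (r = 0.983), Jag2 most like Erfe (r = 0.984), Dll1 most like Rpl27a (r = 0.976) and Heyl most like Elp3 (r = 0.956). Each such partner was picked for having the highest r of all genes compared. The values of r describe the pattern of levels over the 6 groups and their libraries, and none was tested.

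The rest of the pathway was read from a list of 54 further genes, of which 46 were tested. Dll3, Dll4, Dlk1, Mfng, Dtx1, Hes2, Hes3 and Hes5 had too few counts. Dlk1, a noncanonical ligand that gives the imprinted region its name, had 0 counts in all libraries but 1, which had 1 count. In the overexpressor, 3 of the 46 were higher and 8 lower than control in myoblasts, beside 20.7% and 19.7% of all genes, and 9 were higher and 19 lower in myotubes, beside 26.2% and 30.9%. In the labelled knockout, 8 were higher and 20 lower in myoblasts, beside 26.4% and 26.6% of all genes, and 10 were higher and 24 lower in myotubes, beside 31.0% and 37.0%. In overexpressor myoblasts the 11 calls became 17 without overexpressor replicate B. The median log2 fold change of the list was 0.05, -0.09, -0.21 and -0.22 in these 4 comparisons, beside 0.015, -0.04, 0.019 and -0.07 over all genes. Control differentiation raised 15 and lowered 15, beside 33.9% and 28.8% of all genes.

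Of the 4 tested glycosyltransferases of the receptor, 3 were lower and 0 higher in labelled knockout myotubes, beside 37.0% and 31.0% of all genes. In overexpressor myotubes 3 were lower and 1 higher, beside 30.9% and 26.2%. In myoblasts 2 were lower and 0 higher in the overexpressor, beside 19.7% and 20.7%. There 2 were lower and 1 higher in the labelled knockout, beside 26.6% and 26.4%. Lfng, the Fringe glycosyltransferase that shifts receptor preference from Jagged towards Delta ligands, measured 65.8 to 69.7 CPM in control myoblasts, 66.9 to 70.3 in overexpressor myoblasts and 14.4 to 19.7 in labelled knockout myoblasts. It was 4.07-fold lower in the labelled knockout (log2 fold change -2.03 ± 0.11, adjusted p = 3.75e-11), 2.34-fold lower in its myotubes (adjusted p = 9.65e-08), and it fell 12.1-fold as the control differentiated (adjusted p = 1.93e-14). Pofut1, which adds the O-fucose that Fringe extends, was 2.18-fold lower in labelled knockout myotubes (adjusted p = 3.84e-10). Poglut1, the O-glucosyltransferase of the receptor, was 2.03-fold lower in overexpressor myotubes (adjusted p = 7.74e-11). Of the 9 sheddase and gamma-secretase genes, 5 were lower and 1 higher in labelled knockout myotubes, where 37.0% and 31.0% of all genes were, and 4 were lower and 0 higher in overexpressor myotubes, where 30.9% and 26.2% of all genes were. In overexpressor myoblasts 0 of the 9 passed, beside 40.4% of all genes. In labelled knockout myoblasts 2 were lower and 0 higher, beside 26.6% and 26.4%. The sheddases Adam10 and Adam17 were 2.85-fold and 2.11-fold lower in labelled knockout myotubes (adjusted p = 1.12e-05 and 1.22e-06), and the gamma-secretase subunit Psen2 rose 2.25-fold in control differentiation (adjusted p = 1.71e-08).

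Of the 4 ubiquitin ligases that drive ligand endocytosis, 1 was higher and 3 were lower in labelled knockout myotubes, beside 31.0% and 37.0% of all genes, and 2 were higher and 0 lower in overexpressor myoblasts, beside 20.7% and 19.7%. In labelled knockout myoblasts 1 was higher and 2 were lower, beside 26.4% and 26.6%. In overexpressor myotubes 1 was higher and 1 lower, beside 26.2% and 30.9%. Neurl1a measured 33.2 to 37.7 CPM in control myoblasts, 155 to 198 in overexpressor and 120 to 137 in labelled knockout myoblasts, and was 5.14-fold (adjusted p = 4.9e-12) and 3.62-fold higher (adjusted p = 7.15e-11). It was also 2.17-fold higher in labelled knockout myotubes (adjusted p = 2.66e-08) and rose 5.20-fold in control differentiation (adjusted p = 1.13e-12). Neurl1a shares 690 bases of its exons with AC132288.2, a gene on the same strand. Its relative Neurl1b was 3.62-fold lower in labelled knockout myoblasts (adjusted p = 5.47e-09) and 2.85-fold lower in the myotubes (adjusted p = 5.84e-07), and it fell 7.04-fold in control differentiation (adjusted p = 1.77e-11). Mib2 was 125 to 137 CPM in control myotubes, 44.2 to 52.6 in the overexpressor and 45.5 to 51.7 in the labelled knockout, 2.74-fold and 2.72-fold lower (adjusted p = 4.57e-11 and 4.35e-11), and it rose 2.99-fold in control differentiation (adjusted p = 8.95e-12). Mib1 was 2.96-fold lower in labelled knockout myotubes (adjusted p = 4.24e-05). The noncanonical ligand Dlk2 was 15-fold lower in overexpressor myoblasts (adjusted p = 8.12e-11), 4.87-fold lower in overexpressor myotubes (adjusted p = 4.19e-08) and 2.14-fold lower in labelled knockout myoblasts (adjusted p = 4.15e-05), and it fell 3.16-fold in control differentiation (adjusted p = 2.74e-07).

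Of the 8 genes of the nuclear complex, 6 were lower and 1 higher in labelled knockout myotubes, beside 37.0% and 31.0% of all genes, and 5 were lower and 1 higher in overexpressor myotubes, beside 30.9% and 26.2%. In the myoblasts of each clone 3 were lower and 0 higher. The shares of all genes there were 19.7% and 20.7% in the overexpressor and 26.6% and 26.4% in the labelled knockout. Rbpj, the DNA-binding partner of the receptor, measured 36.7 to 43.9 CPM in control myotubes, 13.3 to 17.9 in overexpressor and 13.4 to 17.7 in labelled knockout myotubes. It was 2.42-fold (adjusted p = 1.23e-07) and 2.56-fold lower (adjusted p = 4.99e-08) than control there, without overlap. The coactivator Maml2 was 2.60-fold lower in overexpressor myoblasts (adjusted p = 1.26e-08). Of the 8 corepressors, 3 were higher and 3 lower in the myotubes of each clone, against the shares of all genes given above. In myoblasts 0 were higher and 1 was lower in the overexpressor, and 3 were higher and 5 lower in the labelled knockout. The corepressor Bend6, which binds RBPJ, was 4.92-fold lower in overexpressor myotubes (adjusted p = 3.37e-10) and 13-fold lower in labelled knockout myotubes (adjusted p = 1.71e-12), and 2.33-fold lower in labelled knockout myoblasts (adjusted p = 1.1e-06). The Groucho-family corepressor Tle4 was 3.63-fold higher in labelled knockout myoblasts (adjusted p = 2.49e-09) and 3.60-fold higher in the myotubes (adjusted p = 9.94e-10), and Tle1 and Tle2 fell 2.01-fold and 2.29-fold in control differentiation (adjusted p = 6.66e-08 and 3.07e-09).

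Hes6, a family member known for favouring differentiation, measured 71.3 to 82.3 CPM in control myoblasts and 179 to 191 in labelled knockout myoblasts (2.44-fold higher, adjusted p = 2.72e-09). In myotubes it measured 143 to 152 CPM in control, 285 to 339 in the overexpressor and 299 to 350 in the labelled knockout, 2.12-fold (adjusted p = 1.79e-08) and 2.19-fold higher (adjusted p = 8.41e-09). Dtx4, a Deltex ubiquitin ligase of the receptor, was 2.73-fold higher in labelled knockout myotubes (adjusted p = 1.12e-10), and Itch, another such ligase, was 2.20-fold lower (adjusted p = 1.7e-05). Nrarp, a feedback inhibitor that is itself a Notch target, fell 2.24-fold in control differentiation (adjusted p = 0.000152) from 2.09 to 2.53 CPM in the myoblasts to 0.794 to 1.44 CPM in the myotubes. A gene on the opposite strand, Gm38287, overlaps 2051 of the 2582 bases of Nrarp exons. Its reads cannot be told from those of Nrarp if strand was not used.

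**Figure D5:**
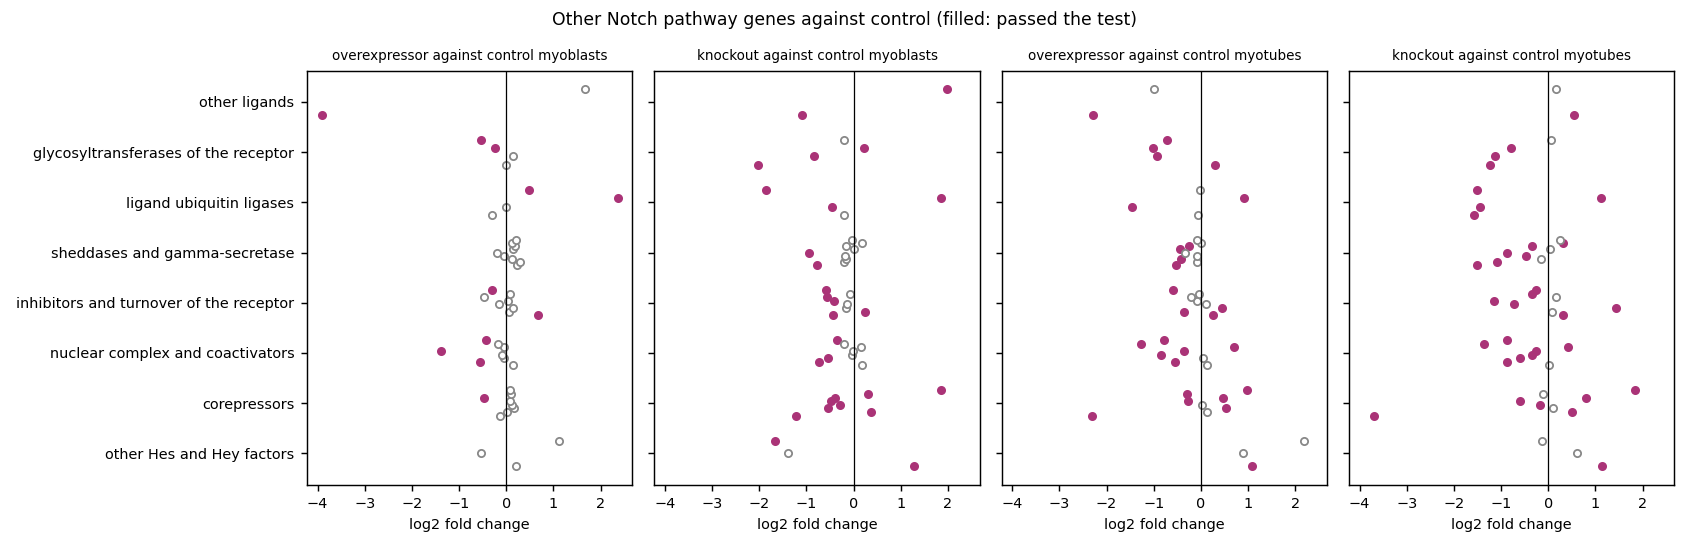
Log2 fold change against control of the 46 tested further pathway genes, by role, in the 4 comparisons of a clone with the control. Filled points passed an adjusted p of 0.05 and open points did not, and points are spread vertically within a role. In labelled knockout myotubes 24 filled points lie left of 0 and 10 right of it, beside 37.0% and 31.0% of all genes, and in overexpressor myoblasts 8 lie left and 3 right, beside 19.7% and 20.7%.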

How the data were processed

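Polyadenylated RNA was sequenced from 18 libraries in 6 groups of 3. Per the submitters' processing notes, reads were handled with FastQC 0.11.7, STAR 2.7.9a, featureCounts of Subread 2.0.3 and DESeq2 1.32.0 on build mm10. The order of these steps, the release of the annotation and strand use are not given in the sources used here. The authors deposited raw counts per Ensembl gene, with 1 column per library. A second table, of variance-stabilised values, was not used.

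The test was that of edgeR 4.0.16, run in R 4.3.3 on the deposited counts (TMM factors of 0.895 to 1.08, filterByExpr by group, robust quasi-likelihood fit) over all 18 libraries, with 1 coefficient for each of the 6 groups, 12 residual degrees of freedom and 11 contrasts. Benjamini-Hochberg adjustment ran over the 17912 genes tested, with 0.05 as the threshold, and every adjusted p in the text is from this test unless another is named. A standard error is the log2 fold change divided by the square root of the F statistic. CPM are counts scaled to a common size by the library total times its TMM factor, and RPKM are CPM per kilobase of the union of exons in the GENCODE M21 annotation of GRCm38. The fit was also run on simulated counts in which a small share of genes was changed in 1 group, up or down. In these data 39.0% to 68.0% of genes passed, depending on the contrast. The simulation therefore does not test the scaling under such widespread change.

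The 10 members, the list of further pathway genes and the marker lists were chosen with earlier results of these data known. Members are named in every contrast. Of the further genes, those with an absolute log2 fold change of at least 1 and a mean of at least 1 CPM in the higher group were named where they passed in a comparison of a clone with control or in control differentiation. The promoter search was planned for the 3 targets and made on the other members, since the table held no entry for the targets. Alternatives were other scalings, other filters, DESeq2 1.42.0, a replicate block, fits of only the groups compared, and leaving out each library. No pair of replicates was close enough in counts to be a single library under different names. The measure was the chi-square per degree of freedom between the counts of 2 replicates. Overexpressor myotube C lay furthest from its replicates (118 and 112, against 22.8 between A and B). Labelled knockout myotubes A and C followed (55.04). Overexpressor myoblast B lay apart from A and C (37.25 and 33.03, against 8.46 between these).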

Additional observations from a re-analysis of the deposited data

Results flagged for a closer look

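In 15 cases the response of a member to differentiation differed between a clone and the control by the interaction test itself, on the log2 scale. In the overexpressor the difference from the control response was -1.79 for Heyl, -1.64 for Notch2, 1.24 for Notch3, -0.83 for Jag1, 0.57 for Dll1, 0.44 for Hey1 and 0.23 for Jag2. In the labelled knockout it was -3.15 for Jag1, -2.08 for Heyl, 0.98 for Notch3, 0.87 for Hey1, 0.73 for Notch1, 0.67 for Jag2, -0.46 for Notch2 and -0.27 for Hes1. In 3 of these cases the call was lost under some alternatives. Of 19 alternatives, Jag2 in the overexpressor kept its call in 7, Hey1 in the overexpressor in 16 and Hes1 in the labelled knockout in 6. Over all genes 39.0% and 50.1% passed these interaction tests. No library of these groups of 3 was tested as an outlier.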

How the results depend on the processing

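Of the 110 results on members, 86 were called, where 39.0% to 68.0% of all genes passed, depending on the contrast. Of these 86, 75 kept their call and direction under every alternative. How often calls on other genes were kept was not examined. No called result reversed, and 7 of the 24 uncalled results stayed the same throughout. With median-of-ratios size factors, results that had not passed changed sign for Notch2 between the clones' myotubes (-0.013), Heyl and Hes1 in differentiation of the overexpressor and the labelled knockout (0.027 and 0.106), and the Dll1 response of the labelled knockout against control (0.02). DESeq2 gave -0.013, 0.027, 0.106 and 0.021 for the same. With library totals, Dll1 changed sign in differentiation of the control (-0.015) and of the labelled knockout (-0.072), as did the Hes1 response of the overexpressor (0.019) and Notch3 between the clones' myotubes (0.057). With at least 1 CPM in 3 libraries, Notch2 between the clones' myotubes was -0.012 and Hes1 in differentiation of the labelled knockout 0.006, and Notch4 was not tested. In a fit of those groups alone, this Hes1 value was 0.045. In these cases the cause was not tested. The Hes1 response of the labelled knockout lost its call with median-of-ratios factors (-0.11, adjusted p = 0.443), DESeq2 (adjusted p = 0.483), library totals (-0.19, adjusted p = 0.138), no filter (adjusted p = 0.078) and only the groups compared (-0.17, adjusted p = 0.125), and the Jag2 response of the overexpressor with no filter (adjusted p = 0.0831).

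Leaving out single libraries gave -0.256 to 0.008 for the Hes1 response of the overexpressor, and in its differentiation -0.012 to 0.184 for Hes1, -0.268 to 0.112 for Heyl and -0.257 to 0.054 for Notch4. The range was -0.009 to 0.10 for Jag2 in labelled knockout against control myotubes. Between the clones it was -0.104 to 0.074 for Notch2 and -0.12 to 0.085 for Notch3 in myotubes, and -0.142 to 0.205 for Notch4 in myoblasts. The number of further pathway genes called in overexpressor myoblasts ran from 11 to 17.

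Library letters did not pair the samples: 4 of 45 same-letter pairs had a correlation of deviations over 0.1 (range -0.358 to 0.264, against -0.315 to 0.446 between letters). With the letter as a replicate block, the Jag2 response of the overexpressor (0.23, adjusted p = 0.0609) lost its call, and no other member call changed. Library totals moved the median log2 fold change of all genes from 0.07 to -0.17 in control differentiation, from -0.075 to -0.24 in that of the labelled knockout, from -0.04 to 0.11 between overexpressor and control myotubes and from -0.05 to 0.14 in the overexpressor response. The share of calls that were higher went from 54.0% to 37.9%, 45.5% to 34.0%, 45.8% to 57.8% and 42.7% to 61.0%. Median-of-ratios factors moved it from 42.7% to 53.9% and from 40.4% to 52.0% in the responses of the overexpressor and the labelled knockout, and moved the median from -0.04 to 0.07 and from -0.07 to 0.06 in overexpressor and labelled knockout myotubes against control. Depth limited Notch4, with 10 to 44 counts per library.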

Other observations

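Hey2, a further Hey repressor, was a low gene of the pathway list, with 0 to 32 counts per library. It measured 0.439 to 0.669 CPM in overexpressor myoblasts and 0.0749 to 0.404 CPM in control myoblasts, which did not overlap, without a called difference. It was higher in overexpressor than in labelled knockout myoblasts (0.0534 to 0.108 CPM) by a log2 fold change of 2.78 (adjusted p = 0.000652). Dlk2, by contrast with Dlk1, was a measurable noncanonical ligand, at 6.36 to 8.04 CPM in control myoblasts, 0.237 to 0.659 CPM in overexpressor myoblasts and 3.08 to 3.61 CPM in labelled knockout myoblasts.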
